A study of Homo sapiens with 72 samples.

Results

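The genes described here are 32 genes of the lysosome, chosen by name from the gene symbols of GENCODE release 44, out of 62266 genes in the deposited table. They are 2 lysosomal membrane glycoproteins (LAMP1 and LAMP2), 5 cathepsins (CTSA, CTSB, CTSD, CTSL and CTSZ), 3 glycosidases (GLA, HEXA and NEU1), a cation channel with 2 sterol carriers (MCOLN1, NPC1 and NPC2), 2 precursors of lysosomal cofactors (PSAP and GRN), 3 regulators or receptors (TFEB, FLCN and SQSTM1), the glycoprotein GPNMB, and 13 subunits of the vacuolar proton pump (V-ATPase), of which 5 belong to its membrane part V0 and 8 to its catalytic part V1. All 32 were measured, and all 32 passed the filter on low counts in each line. They were followed in 3 human epithelial lines immortalised with the papillomavirus genes E6 and E7, an ectocervical line (Ecto), an endocervical line (Endo) and a vaginal line (VK2), all kept in keratinocyte serum-free medium (KSFM). Each line is one established line, so the 3 lines stand for 3 sources of cells and not for a population. Cells received no polyamine (NT), 4 mM putrescine (PUT), 400 µM spermidine (SPD) or 400 µM of its larger relative spermine (SPM) for 4 h, and then either no bacteria (noGV) or live Gardnerella vaginalis (GV, 10000000 colony-forming units per well) for 24 h. This gives 8 groups of 3 libraries in each line and 72 libraries in all. The labels do not say whether the 3 libraries of a group are separate cultures, and p-values therefore describe the spread among the libraries at hand.

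Lysosomes digest proteins, lipids and glycans with acid hydrolases, and the V-ATPase pumps in the protons that keep these enzymes active. TFEB, a transcription factor held in the cytoplasm by mTORC1 on the lysosomal surface, enters the nucleus when lysosomes are starved or stressed and switches on many of these genes through a short promoter element known as CLEAR, which contains the E-box letters CACGTG. In the epithelium of the lower genital tract, lysosomes also receive bacteria and cell debris taken up at the surface.

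Promoter windows of the RefSeq annotation (GRCh38.p14), 250 bases before to 50 bases after a transcription start, were at hand for 23 of the 32 genes, as 30 windows. LAMP2, CTSB, HEXA, PSAP, ATP6V0E1, ATP6V1A, ATP6V1B2, ATP6V1C1 and ATP6V1H had no window. The E-box core CACGTG, which reads the same on both strands, was in the windows of 8 of the 23 genes, ATP6V0B, ATP6V0D1, ATP6V1G1, CTSA, CTSD, LAMP1, MCOLN1 and NEU1, and in 7.26% of all 35116 windows. The longer form TCACGTGA, which contains the core, was in the windows of 5 of these genes, ATP6V0D1, ATP6V1G1, CTSA, LAMP1 and MCOLN1, and in 0.98% of all windows. The full CLEAR palindrome, which contains both, was in those of ATP6V1G1 and MCOLN1 and in 0.353% of all windows. These shares count windows and not genes. By window, the core was in 8, the longer form in 5 and the palindrome in 2 of the 30 windows of the members. A match is a description of letters and not of a bound site. The stretches of 100 bases that hold these cores are shown because TFEB is known to bind this core, with each core in capitals. With GV, 9 of all 32 members rose in every line, among them 5 of these 8 genes, ATP6V0B, ATP6V0D1, CTSA, MCOLN1 and NEU1, while ATP6V1G1 passed in no line, CTSD fell in Ecto and Endo and LAMP1 fell in Endo. ATP6V0A1, ATP6V0C and GLA rose in every line with no core in their windows, and ATP6V0E1, which also rose in every line, had no window. The share of all genes that rose in every line was not counted. Whether a core goes with a rise was not tested. All stretches lie upstream of the RefSeq start of their window. Against the GENCODE genes of the count table, those of LAMP1 and MCOLN1 lie before the gene, those of ATP6V0D1, ATP6V1G1 and NEU1 overlap its start, and those of ATP6V0B, CTSA and CTSD lie inside it. They are written 5′ to 3′ in the direction of the gene.
ATP6V0B: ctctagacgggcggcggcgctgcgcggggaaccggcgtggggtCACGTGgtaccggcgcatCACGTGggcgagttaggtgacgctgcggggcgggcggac
ATP6V0D1: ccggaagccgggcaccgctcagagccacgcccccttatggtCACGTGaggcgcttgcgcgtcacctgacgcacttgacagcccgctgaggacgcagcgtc
ATP6V1G1: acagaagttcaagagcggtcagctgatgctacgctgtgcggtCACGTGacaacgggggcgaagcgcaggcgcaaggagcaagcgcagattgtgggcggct
CTSA: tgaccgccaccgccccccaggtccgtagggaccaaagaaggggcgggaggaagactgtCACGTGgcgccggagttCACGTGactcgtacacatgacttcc
CTSD: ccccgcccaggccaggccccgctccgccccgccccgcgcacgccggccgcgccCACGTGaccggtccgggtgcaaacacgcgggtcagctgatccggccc
LAMP1: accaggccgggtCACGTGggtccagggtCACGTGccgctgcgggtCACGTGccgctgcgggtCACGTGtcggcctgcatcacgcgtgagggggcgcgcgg
MCOLN1: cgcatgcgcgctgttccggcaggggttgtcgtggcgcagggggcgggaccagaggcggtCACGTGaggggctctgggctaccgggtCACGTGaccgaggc
NEU1: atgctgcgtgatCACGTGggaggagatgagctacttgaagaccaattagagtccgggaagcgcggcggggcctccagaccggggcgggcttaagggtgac
They lie at chr1:43974860-43974959 on the plus strand for ATP6V0B, at chr16:67481158-67481257 on the minus strand for ATP6V0D1 and at chr9:114587669-114587768 on the plus strand for ATP6V1G1. Those of CTSA, CTSD and LAMP1 lie at chr20:45891235-45891334 on the plus strand, at chr11:1763928-1764027 on the minus strand and at chr13:113297035-113297134 on the plus strand. Those of MCOLN1 and NEU1 lie at chr19:7522524-7522623 on the plus strand and at chr6:31862860-31862959 on the minus strand. LAMP1 carried 6 cores in its window, of which the stretch shows 4, MCOLN1, CTSA and ATP6V0B carried 2 each, and the others carried 1.

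Library totals ran from 20152143 to 42767996 counts with a median of 31872238.5. Levels are given as CPM, counts scaled to a common library size over the 72 libraries by TMM, and for comparisons between genes as CPM per kilobase of the canonical transcript. All 8 epithelial markers examined were above 1 CPM in each line, and their summed level was 5810 to 35400 CPM over the libraries. Of 9 leukocyte and macrophage markers, whose summed level was 34.9 to 147 CPM, most came from the lysosomal gene CD68, while PTPRC, the pan-leukocyte marker, reached at most 0.211 CPM and TYROBP at most 0.0302 CPM. Of these 9 markers, 5 (Ecto), 3 (Endo) and 4 (VK2) exceeded 1 CPM in at least 1 library. Endothelial markers (4 genes) summed to at most 3.86 CPM, fibroblast markers (6 genes) to at most 70.3 CPM, mostly from COL1A1, and melanocyte markers (4 genes) to at most 6.82 CPM. In bulk RNA, fewer cells that express a gene and less of its RNA per cell cannot be told apart. In Ecto SPD+noGV, library 3 stood apart: it had a summed V-ATPase level of 1495 CPM against 1297 and 1305 CPM in the other 2, and a summed level of the other 19 members of 4953 CPM against 4485 and 4554 CPM. Other groups were also spread. The 19 members summed to 4130, 4279 and 4606 CPM in VK2 PUT+GV (SD 243, against 252 in Ecto SPD+noGV). The V-ATPase sums were 1478, 1600 and 1658 CPM in Ecto SPM+GV (SD 92.1, against 112 in Ecto SPD+noGV). The labels name no batch.

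In untreated cells (NT+noGV) the members spanned a wide range of levels per length, and each line had its own order. In Ecto the highest was SQSTM1, an autophagy receptor that carries ubiquitinated cargo, at 323 ± 5.14 CPM per kb (SD, n = 3), followed by GRN, the progranulin precursor, at 258 ± 10.8. In Endo, NPC2, the soluble carrier that hands cholesterol to NPC1, led with 289 ± 1.60 CPM per kb, ahead of PSAP, the saposin precursor, with 255 ± 6.81. In VK2, CTSD, the aspartic protease cathepsin D, led with 458 ± 10.5 CPM per kb, also ahead of PSAP with 256 ± 8.42. TFEB was the least abundant member in every line, at 2.18 ± 0.292 CPM per kb in Ecto, 4.34 ± 0.272 in Endo and 3.03 ± 0.19 in VK2. The proton pump subunits did not share a level: in Ecto ATP6V0C, the proteolipid ring subunit, was at 218 ± 2.55 CPM per kb and ATP6V0A1, the subunit that holds the proton channels, at 12.5 ± 0.313. In the plot of untreated levels the lines lie furthest apart for MCOLN1 and CTSD.

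**Figure D1:**
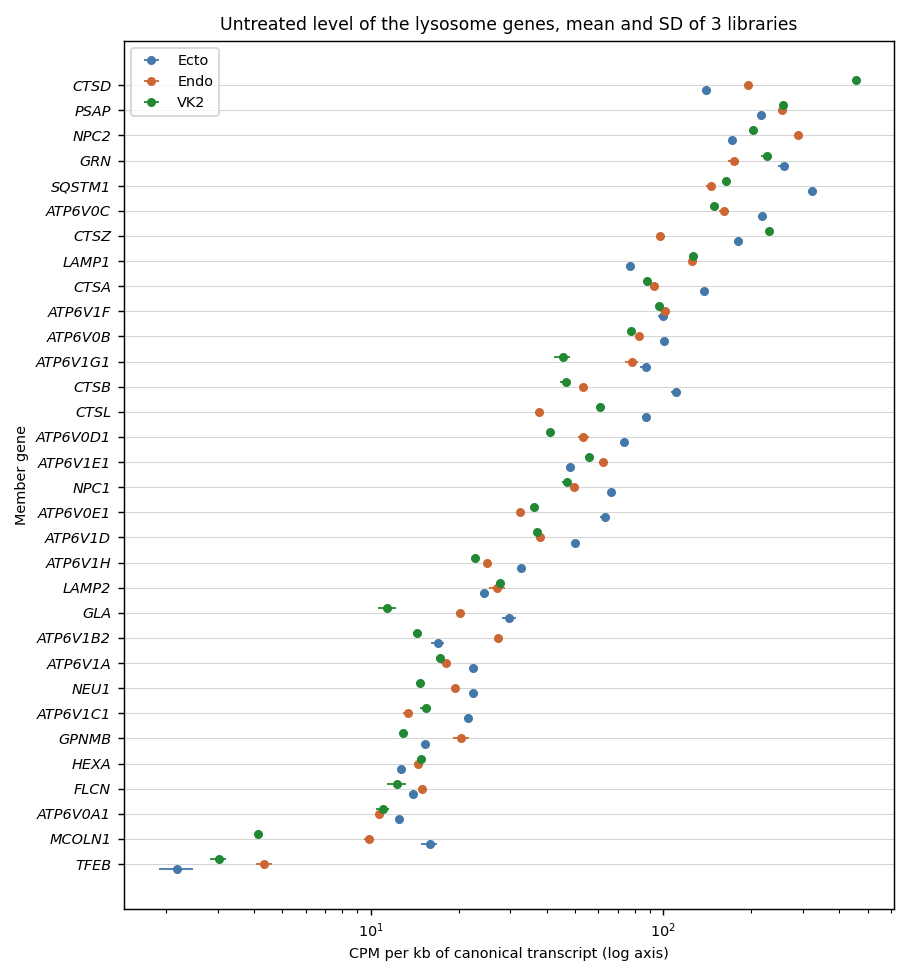
Level of each lysosome gene in untreated cells (NT+noGV), as CPM per kilobase of canonical transcript on a log axis; points are means and bars SD of 3 libraries, coloured by line. CTSD in VK2 reached 458 CPM per kb, and TFEB was lowest in each line.

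Untreated Ecto cells held more lysosomal RNA than the other lines for most members. Against Endo, 20 of the 32 members were higher in Ecto (31.9% of all 21195 genes tested) and 10 were lower (32% of all genes). Against VK2, 22 were higher in Ecto (31.8% of all genes) and 9 lower (32%), while Endo exceeded VK2 for 13 (29.3%) and fell below it for 7 (30.4%). The median log2 difference over the members was 0.29 for Ecto minus Endo and 0.38 for Ecto minus VK2, beside 0.013 and 0.0093 over all genes. MCOLN1, the lysosomal cation channel that releases calcium, differed most: it was at 31, 33.4 and 35.1 CPM in the 3 Ecto libraries, 20.1, 20.2 and 21.4 CPM in Endo and 8.55, 8.61 and 8.71 CPM in VK2. The 3 lines did not overlap, and Ecto exceeded VK2 (log2 difference 1.95, SE 0.062, adjusted p = 2.82e-38). GLA, alpha-galactosidase A, followed the same order, at 37.5, 38.5 and 41.6 CPM in Ecto, 26.1, 26.3 and 27.8 CPM in Endo and 14.2, 14.6 and 16.2 CPM in VK2. CTSD went the other way, with 283, 291 and 292 CPM in Ecto, 392, 397 and 412 CPM in Endo and 921, 937 and 964 CPM in VK2 (Ecto minus VK2, log2 difference -1.70, SE 0.048, adjusted p = 6.66e-41). LAMP1, a main glycoprotein of the lysosomal membrane, was lower in Ecto, at 207, 209 and 210.3 CPM, than in Endo, at 334, 336 and 343 CPM, and VK2, at 335, 342 and 351 CPM, and the last 2 did not pass the test (Endo minus VK2, log2 difference -0.021, SE 0.034, adjusted p = 0.62). TFEB RNA was also lowest in Ecto, at 4.31, 5.43 and 5.53 CPM, with 6.66, 6.99 and 7.54 CPM in VK2 and 9.45, 10.2 and 10.7 CPM in Endo. SQSTM1 was higher in Ecto, at 907, 912 and 935 CPM, than in Endo, at 395, 420.1 and 428 CPM (log2 difference 1.15, SE 0.051, adjusted p = 2.88e-30).

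The first comparison asks what live G. vaginalis did to these genes (NT+GV against NT+noGV). All 5 V0 subunits of the proton pump among the members rose in each of the 3 lines. GLA, NEU1 (the sialidase that trims glycoproteins), CTSA (the carboxypeptidase that stabilises NEU1) and MCOLN1 also rose in all 3 lines. In Ecto 11 of the 32 members rose (20.9% of all genes tested) and 6 fell (23.7%), in Endo 17 rose (25.7%) and 8 fell (28.7%), and in VK2 16 rose (13.9%) and 0 fell (12.5%). For the 0 in VK2 by edgeR, 1 member was lower at an unadjusted p under 0.05, and DESeq2 called 1. The median log2 fold change over the members was 0.059 (Ecto), 0.15 (Endo) and 0.10 (VK2), beside 0.0029, -0.00089 and 0.0014 over all genes. Of all genes at least as abundant as the lower quartile of the members (Ecto 3703, Endo 3829 and VK2 4099 genes), GV raised 17.4% (Ecto), 31% (Endo) and 22.3% (VK2) and lowered 41.6% (Ecto), 44.3% (Endo) and 19.1% (VK2). A single member changed by 2-fold or more, GPNMB in Endo. Scaled to library totals alone, without TMM, the counts that rose and fell were 18 and 4 in Ecto, 19 and 5 in Endo and 15 and 2 in VK2, and all genes in Ecto shifted by a log2 of 0.113.

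Among the V0 subunits, ATP6V0B, a proteolipid of the rotating ring, went in Ecto from 98.7, 99.6 and 99.8 CPM without bacteria to 135, 138 and 142 CPM with GV (log2 fold change 0.47, SE 0.06, adjusted p = 6.45e-07). The groups did not overlap in Ecto, nor in Endo (80.8, 82.4 and 82.4 against 110.3, 110.4 and 112 CPM) or VK2 (74.7, 77 and 78.2 against 83.1, 88.1 and 91.9 CPM). ATP6V0C, which forms most of that ring, rose most in Endo, from 169, 178 and 183 to 264, 282 and 282 CPM (log2 fold change 0.65, SE 0.041, adjusted p = 1.71e-14). ATP6V0E1, a small membrane subunit, rose by 0.47 (Ecto), 0.52 (Endo) and 0.17 (VK2) on the log2 scale, ATP6V0A1 by 0.38 (Ecto), 0.45 (Endo) and 0.32 (VK2), and ATP6V0D1, which couples the ring to the central shaft, by 0.21 (Ecto), 0.43 (Endo) and 0.13 (VK2). The 8 subunits of V1, the part that hydrolyses ATP, passed the test in fewer cases: 1 rose in Ecto (ATP6V1D, of the central shaft, log2 fold change 0.34), 5 in Endo (ATP6V1A, ATP6V1B2, ATP6V1D, ATP6V1E1 and ATP6V1H, 0.16 to 0.35) and 1 in VK2 (ATP6V1E1 of the outer stalks, 0.19). None of the 8 fell. Of all genes, GV raised 20.9% (Ecto), 25.7% (Endo) and 13.9% (VK2) and lowered 23.7%, 28.7% and 12.5%. ATP6V1C1, ATP6V1F and ATP6V1G1 passed in no line. A call here was lost on leaving out 1 library. ATP6V0D1 in VK2 (without NT+GV 2 or 3 or NT+noGV 1 or 3, adjusted p = 0.0558 to 0.0713) no longer passed.

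GLA showed the highest increase of any member in each line. It went from 37.5, 38.5 and 41.6 to 62.2, 64.8 and 68.8 CPM in Ecto (log2 fold change 0.73, SE 0.071, adjusted p = 6.5e-09), from 26.1, 26.3 and 27.8 to 47.6, 47.7 and 52 CPM in Endo (log2 fold change 0.89, SE 0.057, adjusted p = 2.28e-14) and from 14.2, 14.6 and 16.2 to 20.1, 20.7 and 21.2 CPM in VK2 (log2 fold change 0.48, SE 0.062, adjusted p = 4e-07). NEU1 went from 74, 75.7 and 76.5 to 107, 109.5 and 113 CPM in Ecto (log2 fold change 0.54, SE 0.064, adjusted p = 1.76e-07), with smaller rises of 0.37 in Endo and 0.34 in VK2. The third glycosidase, HEXA, the alpha chain of beta-hexosaminidase, did not share this: it fell in Ecto, from 60.4, 60.5 and 60.8 to 41.8, 42.3 and 42.5 CPM (log2 fold change -0.53, SE 0.047, adjusted p = 1.68e-09), and in Endo by 0.19 on the log2 scale, and was at -0.037 in VK2. MCOLN1 went from 31, 33.4 and 35.1 to 47.6, 48.9 and 50.8 CPM in Ecto (log2 fold change 0.56, SE 0.058, adjusted p = 1.74e-08) and from 8.55, 8.61 and 8.71 to 10.0, 10.8 and 11 CPM in VK2 (log2 fold change 0.31, SE 0.071, adjusted p = 0.00119). In Endo it was at 20.1, 20.2 and 21.4 CPM before and 21, 22 and 24.8 CPM after (log2 fold change 0.14, SE 0.059, adjusted p = 0.0449), and the 2 groups overlapped there. A call here also rested on single libraries. MCOLN1 in Endo (without NT+GV 1 or NT+noGV 2 or 3, adjusted p = 0.0982 to 0.374) no longer passed.

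Among the cathepsins, CTSA rose in all 3 lines, CTSL, CTSB and CTSD each passed in 2 lines, and CTSZ, a cysteine carboxypeptidase, passed in none. CTSL, the cysteine protease cathepsin L, rose in Endo from 62, 62.1 and 62.5 to 99.1, 99.6 and 105 CPM (log2 fold change 0.71, SE 0.043, adjusted p = 3.93e-15) and in VK2 from 98.7, 99.3 and 105 to 128, 132 and 132 CPM, but in Ecto it was 140.2, 145 and 149 CPM without and 142, 143 and 159 CPM with GV (log2 fold change 0.024, SE 0.048, adjusted p = 0.725). CTSB, a cysteine protease with carboxypeptidase activity, likewise rose in Endo (0.23) and VK2 (0.36) and was at -0.057 in Ecto. CTSD fell in Ecto, from 283, 291 and 292 to 235, 247 and 251 CPM (log2 fold change -0.25, SE 0.055, adjusted p = 0.000715), and fell in Endo from 392, 397 and 412 to 347, 356 and 368 CPM (log2 fold change -0.16, SE 0.032, adjusted p = 7.49e-05). CTSD reached 930.2, 955 and 992 CPM in VK2 (log2 fold change 0.046, SE 0.046, adjusted p = 0.517). GPNMB, a glycoprotein of melanosomes and lysosomes that is known to rise in lysosomal stress, fell in 2 lines: in Endo it went from 51.9, 52.2 and 58.3 to 21.4, 23.8 and 27.7 CPM (log2 fold change -1.15, SE 0.086, adjusted p = 1.1e-10), in Ecto from 40.1, 40.2 and 41.2 to 32.9, 35.8 and 36.1 CPM (log2 fold change -0.22, SE 0.051, adjusted p = 0.00091), and in VK2 it was at 33.1, 34 and 35.1 and 24, 28 and 31.3 CPM (log2 fold change -0.27, SE 0.10, adjusted p = 0.0507). Of the 4 melanocyte markers, MLANA, TYR and DCT were each at most 0.671 CPM, while PMEL exceeded 1 CPM in each line. All 4 summed to at most 6.82 CPM. 

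The regulators, sterol carriers and membrane glycoproteins each moved in 1 or 2 of the lines. SQSTM1 rose in Endo from 395, 420.1 and 428 to 531, 543 and 545 CPM (log2 fold change 0.39, SE 0.041, adjusted p = 1.29e-09), rose in VK2 from 462, 466 and 467 to 489, 512 and 533 CPM (log2 fold change 0.16, SE 0.056, adjusted p = 0.0439), and was 907, 912 and 935 against 889.8, 908 and 949.9 CPM in Ecto (log2 fold change -0.0096, SE 0.049, adjusted p = 0.896). FLCN, folliculin, which acts with the Rag GTPases at the lysosome upstream of TFEB, fell in Ecto from 50.4, 51.7 and 51.8 to 37, 37.3 and 41.1 CPM (log2 fold change -0.42, SE 0.064, adjusted p = 6.88e-06) and in Endo from 53.6, 54.8 and 56.1 to 43.1, 44.2 and 45.9 CPM (log2 fold change -0.30, SE 0.041, adjusted p = 2.48e-07), and was at 0.081 in VK2. TFEB passed in VK2, where it went from 6.66, 6.99 and 7.54 to 7.85, 8.45 and 11.1 CPM (log2 fold change 0.37, SE 0.11, adjusted p = 0.00941). It was at 0.19 in Ecto (adjusted p = 0.253) and 0.14 in Endo (adjusted p = 0.202). NPC1, the membrane protein that exports cholesterol from lysosomes, fell in Ecto from 314, 315 and 316 to 241, 245 and 258 CPM (log2 fold change -0.35, SE 0.064, adjusted p = 6.17e-05). NPC2 fell in Ecto (-0.19) and in Endo, from 236, 236 and 238 to 181, 183 and 186 CPM (log2 fold change -0.36, SE 0.03, adjusted p = 5.24e-12). LAMP2 rose in Ecto (0.22) and fell in Endo (-0.14). LAMP1 fell in Endo, from 334, 336 and 343 to 314, 318 and 327 CPM (log2 fold change -0.072, SE 0.03, adjusted p = 0.0455), and passed in neither Ecto, at 218, 228 and 228 CPM with GV, nor VK2, at 348, 360.0 and 362 CPM. PSAP fell in Endo (-0.12) and rose in VK2 (0.11), and GRN rose in VK2 (0.22). Of the calls in these genes, some were lost with 1 library left out. LAMP1 in Endo (without NT+GV 2 or 3 or NT+noGV 1 or 2 or 3, adjusted p = 0.0895 to 0.436) and LAMP2 in Endo (without NT+GV 2 or NT+noGV 3, adjusted p = 0.0601 to 0.15) no longer passed. PSAP in VK2 (without NT+GV 1 or 2 or NT+noGV 1 or 2, adjusted p = 0.051 to 0.0764) and SQSTM1 in VK2 (without NT+GV 1 or 2 or NT+noGV 1 or 2 or 3, adjusted p = 0.093 to 0.176) no longer passed. TFEB in VK2 (without NT+GV 2 or NT+noGV 3, adjusted p = 0.0519 to 0.133) no longer passed.

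**Figure D2:**
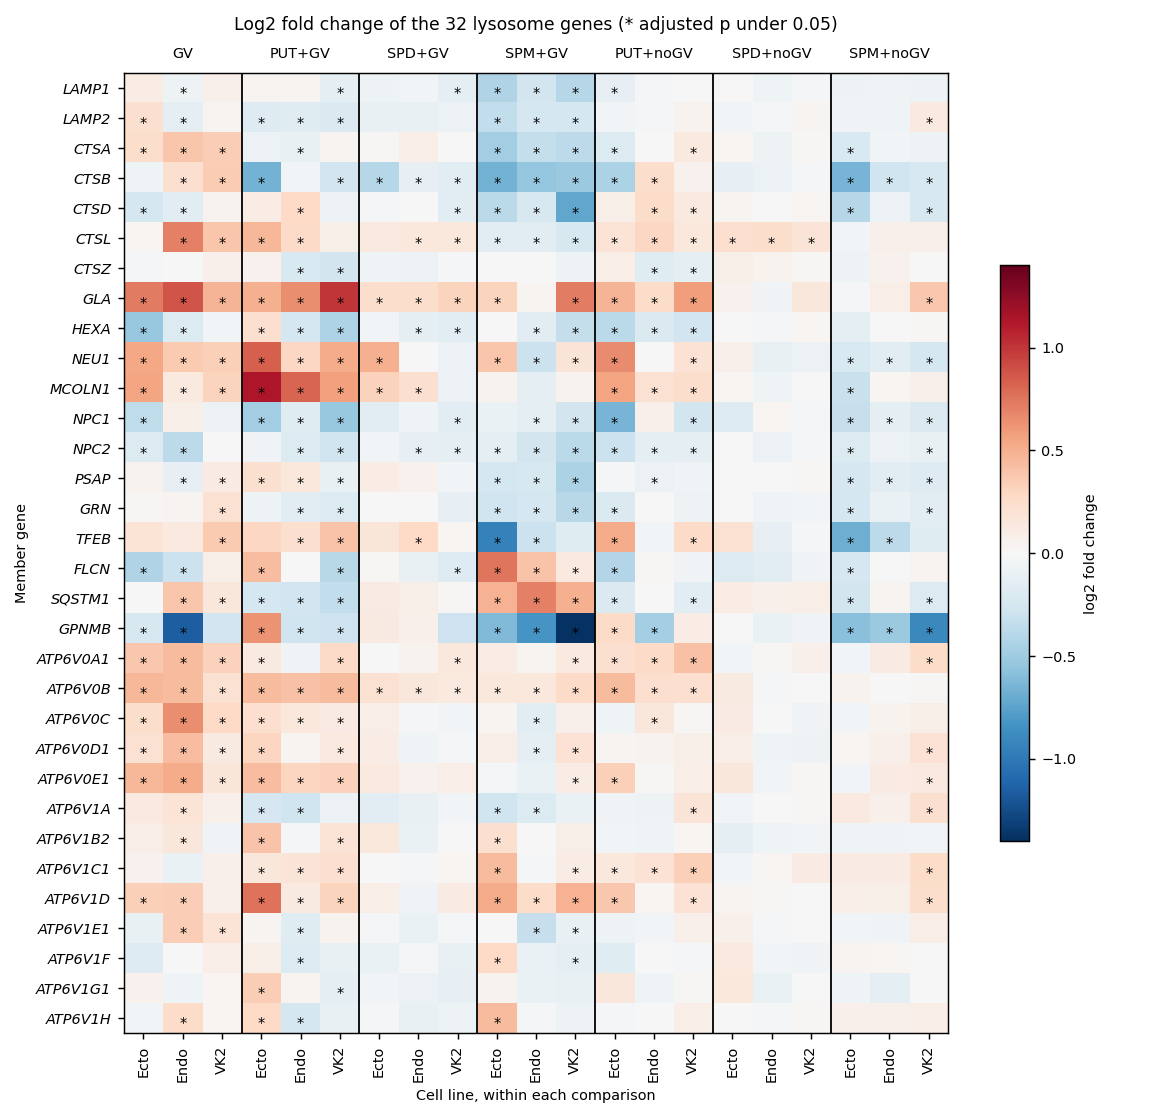
Log2 fold change of the 32 lysosome genes in 7 comparisons (GV against no bacteria, each polyamine with GV against GV alone, and each polyamine without GV against untreated cells) and 3 lines; red is higher, blue lower, and a star marks an adjusted p under 0.05. The 5 V0 subunits are red in the GV columns of all 3 lines, and the SPM+GV columns are blue from LAMP1 to CTSL and red for SQSTM1.

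The second question was how a polyamine given before the bacteria changed these genes, each against NT+GV. The 3 comparisons and the GV comparison share the NT+GV libraries, so their values are not independent. With putrescine (PUT+GV), 18 members rose in Ecto (31.5% of all genes) and 5 fell (24.9%). In Endo 12 rose (27.9%) and 13 fell (28.2%), and in VK2 12 rose (29%) and 13 fell (31.4%). The median log2 fold change of the members was 0.23 (Ecto), -0.0079 (Endo) and -0.084 (VK2), beside 0.074, 0.026 and 0.011 over all genes. In all, 8 members rose in all 3 lines (MCOLN1, GLA, NEU1, ATP6V0B, ATP6V0C, ATP6V0E1, ATP6V1C1 and ATP6V1D), and 3 fell in all 3 lines (LAMP2, NPC1 and SQSTM1). The share of all genes called in all 3 lines at once was not counted, here or for the other comparisons. Such lists of members therefore have no share of all genes beside them. Scaled to library totals alone, all genes moved up by a log2 of 0.144 in Endo and 0.189 in VK2 relative to TMM scaling, and the members that rose and fell became 18 and 4 in Endo and 18 and 6 in VK2. Of the genes at least as abundant as the lower quartile of the members, PUT+GV raised 28.9% (Ecto), 18.1% (Endo) and 18.8% (VK2) and lowered 40.9% (Ecto), 56.8% (Endo) and 59.5% (VK2).

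MCOLN1 rose most in Ecto and Endo, and GLA in VK2. In Ecto MCOLN1 went from 47.6, 48.9 and 50.8 CPM in NT+GV to 102, 103 and 107 CPM in PUT+GV (log2 fold change 1.14, SE 0.056, adjusted p = 1.17e-14), the only member to rise 2-fold or more against NT+GV, with GLA in VK2 just below that. In Endo it went from 21, 22 and 24.8 to 37.7, 39.4 and 41.8 CPM (log2 fold change 0.82, SE 0.055, adjusted p = 9.55e-14) and in VK2 from 10.0, 10.8 and 11 to 15, 15.9 and 16 CPM (log2 fold change 0.57, SE 0.066, adjusted p = 7.45e-09). The PUT+GV libraries lay above every NT+GV library in each line. GLA went from 20.1, 20.7 and 21.2 to 39.7, 41.6 and 42.1 CPM in VK2 (log2 fold change 1.00, SE 0.057, adjusted p = 6.66e-16), and rose by 0.50 in Ecto and, to 73.3, 77 and 80.5 CPM, by 0.65 in Endo. NEU1 went from 107, 109.5 and 113 to 179, 184 and 205 CPM in Ecto (log2 fold change 0.83, SE 0.063, adjusted p = 2.84e-11), rose by 0.29 in Endo, and went from 61.8, 61.8 and 62.1 to 83.7, 87.3 and 95.2 CPM in VK2 (log2 fold change 0.52, SE 0.045, adjusted p = 9.93e-12). Both glycosidases and the channel had also risen with GV alone, and their levels in PUT+GV were the highest of the 8 groups in each line, as the plot by library shows. TFEB was at 6.45, 6.53 and 7.81 CPM in Ecto (log2 fold change 0.29, SE 0.13, adjusted p = 0.0567), rose in Endo to 12.2, 12.4 and 14 CPM (log2 fold change 0.22, SE 0.089, adjusted p = 0.0363) and rose in VK2 to 11, 11.7 and 12.9 CPM (log2 fold change 0.40, SE 0.10, adjusted p = 0.000886). Calls lost without 1 library were these. TFEB in Endo (without NT+GV 2 or 3 or PUT+GV 1 or 2 or 3, adjusted p = 0.0537 to 0.304) no longer passed.

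**Figure D3:**
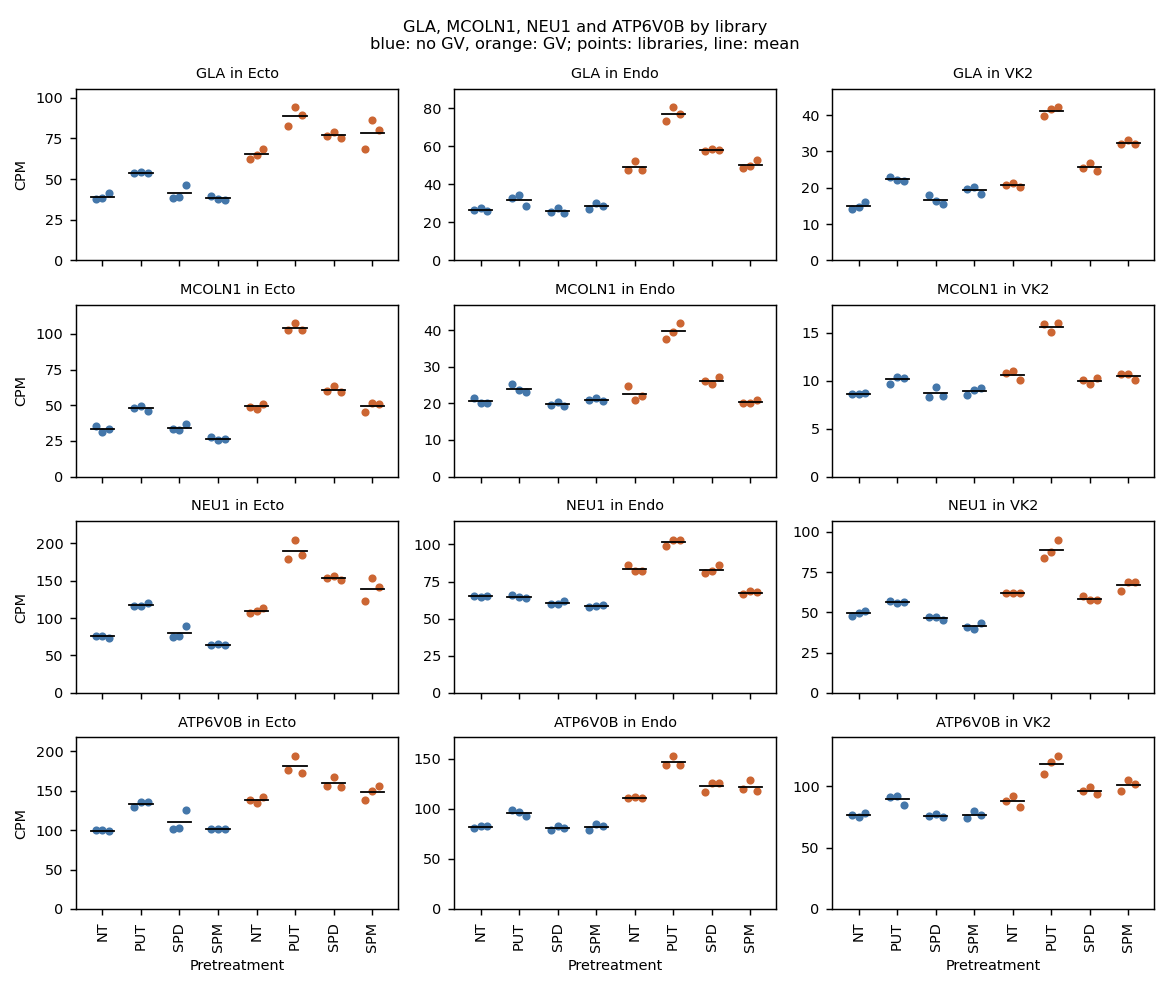
CPM of GLA, MCOLN1, NEU1 and ATP6V0B in each library (points) with the group mean (line), by line and pretreatment, without GV in blue and with GV in orange; each vertical axis starts at 0. In all 12 panels the PUT+GV group lies highest, and NT+GV lies above NT+noGV in mean.

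The pump subunits followed in part. ATP6V0B rose in PUT+GV by 0.44 (Ecto), 0.41 (Endo) and 0.44 (VK2) on the log2 scale, in Ecto to 172, 177 and 194 CPM and in Endo to 144, 144 and 153 CPM. ATP6V1D rose from 99.5, 102 and 103 to 161, 163 and 174 CPM in Ecto (log2 fold change 0.76, SE 0.051, adjusted p = 2.34e-12), and by 0.13 in Endo and 0.31 in VK2. Of the 13 subunits, 10 rose and 1 fell in Ecto, 5 rose and 4 fell in Endo, and 7 rose and 1 fell in VK2. Beside these counts, the shares of all genes that rose and fell were 31.5% and 24.9%, 27.9% and 28.2%, and 29% and 31.4%. ATP6V1A, the catalytic subunit, fell in Ecto (-0.23) and Endo, where it went from 91.7, 93.4 and 97.6 to 74, 75.5 and 81.7 CPM (log2 fold change -0.28, SE 0.045, adjusted p = 2.93e-06). ATP6V1H, a regulatory subunit, rose in Ecto (0.28) and fell in Endo (-0.24). ATP6V1E1 (-0.17) and ATP6V1F (-0.20) fell in Endo. ATP6V1G1, a stalk subunit, rose in Ecto (0.34) and fell in VK2 (-0.14), where its log2 fold change was 0.050 when scaled to library totals. Among the subunits, calls were lost as follows with 1 library left out. ATP6V0A1 in Ecto (without NT+GV 1 or 2 or PUT+GV 2 or 3, adjusted p = 0.0711 to 0.358) and ATP6V1C1 in Ecto (without PUT+GV 3, adjusted p = 0.0871) no longer passed. ATP6V0C in Endo (without NT+GV 3 or PUT+GV 3, adjusted p = 0.0531 to 0.114) and ATP6V1D in Endo (without NT+GV 3 or PUT+GV 2, adjusted p = 0.0895 to 0.19) no longer passed. ATP6V0D1 in VK2 (without PUT+GV 3, adjusted p = 0.0728) and ATP6V1G1 in VK2 (without NT+GV 2 or 3 or PUT+GV 1 or 2, adjusted p = 0.12 to 0.152) no longer passed.

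Several proteases, sterol carriers and receptors fell with PUT+GV. CTSB went in Ecto from 377, 399 and 421 to 239.6, 242 and 248 CPM (log2 fold change -0.66, SE 0.046, adjusted p = 6.34e-12) and fell in VK2 (-0.27). NPC1 went in VK2 from 204, 206 and 212 to 140.5, 144 and 144 CPM (log2 fold change -0.53, SE 0.041, adjusted p = 7.84e-13). NPC1 went in Ecto from 241, 245 and 258 to 167, 168 and 179 CPM (log2 fold change -0.48, SE 0.064, adjusted p = 4.34e-07), and in Endo fell by 0.17 on the log2 scale. SQSTM1 went from 889.8, 908 and 949.9 to 720.2, 757 and 757 CPM in Ecto (log2 fold change -0.25, SE 0.049, adjusted p = 0.000116). It fell in Endo to 439, 444 and 456 CPM (log2 fold change -0.27, SE 0.041, adjusted p = 1.41e-06) and fell in VK2 to 373, 385 and 447 CPM (log2 fold change -0.34, SE 0.056, adjusted p = 1.29e-05). LAMP2 fell by 0.18, 0.17 and 0.21 in Ecto, Endo and VK2. HEXA rose in Ecto (0.24) and fell in Endo (-0.25) and VK2, where it went from 67.3, 68.4 and 70.6 to 47.4, 50.9 and 54.5 CPM (log2 fold change -0.43, SE 0.045, adjusted p = 1.06e-09). GPNMB rose in Ecto from 32.9, 35.8 and 36.1 to 51.5, 51.7 and 53.1 CPM (log2 fold change 0.63, SE 0.05, adjusted p = 7.74e-11). GPNMB fell to 18.8, 19.8 and 21 CPM in Endo (log2 fold change -0.28, SE 0.092, adjusted p = 0.0122) and to 21.4, 22.3 and 24.8 CPM in VK2 (log2 fold change -0.29, SE 0.10, adjusted p = 0.0202). Calls in these genes were lost without 1 library. LAMP2 in Ecto (without PUT+GV 1, adjusted p = 0.0692) and GPNMB in VK2 (without NT+GV 1 or PUT+GV 1 or 2, adjusted p = 0.0512 to 0.112) no longer passed.

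Other members moved with PUT+GV in single lines or pairs of lines. FLCN rose in Ecto (0.43) and fell in VK2 from 45.5, 46.5 and 49.3 to 34.8, 35.3 and 37.3 CPM (log2 fold change -0.39, SE 0.055, adjusted p = 2.63e-07). CTSL rose in Ecto (0.46) and Endo (0.27). CTSD rose in Endo, to 429, 429.8 and 437 CPM (log2 fold change 0.28, SE 0.032, adjusted p = 5.62e-09). CTSD was at 246, 255 and 258 CPM in Ecto (log2 fold change 0.10, SE 0.055, adjusted p = 0.123) and 852, 867 and 986 CPM in VK2 (log2 fold change -0.085, SE 0.046, adjusted p = 0.114). NPC2, CTSZ and GRN fell in Endo (-0.19, -0.21 and -0.15) and in VK2 (-0.28, -0.26 and -0.20). PSAP rose in Ecto (0.23) and Endo (0.15) and fell in VK2 (-0.11). LAMP1 fell in VK2, to 319, 319 and 340.4 CPM (log2 fold change -0.12, SE 0.034, adjusted p = 0.00192). LAMP1 was at 221, 223 and 225 CPM in Ecto (log2 fold change 0.042, SE 0.043, adjusted p = 0.43) and 326, 327 and 329 CPM in Endo (log2 fold change 0.038, SE 0.03, adjusted p = 0.293). CTSA fell in Endo (-0.10). Scaled to library totals, falls turned to log2 fold changes of 0.081 for PSAP in VK2, 0.063 for LAMP1 in VK2 and 0.042 for CTSA in Endo. Leaving out 1 library ended some calls with PUT+GV. CTSA in Endo (without NT+GV 2, adjusted p = 0.0754) and PSAP in VK2 (without PUT+GV 1, adjusted p = 0.0552) no longer passed.

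Spermine before GV (SPM+GV) lowered both LAMP genes, 4 of the 5 cathepsins and both cofactor precursors in every line. The fifth cathepsin, CTSZ, passed in none, at -0.0072 (Ecto), 0.008 (Endo) and -0.068 (VK2). LAMP1, LAMP2, CTSA, CTSB, CTSD, CTSL, NPC2, PSAP, GRN and GPNMB fell in all 3 lines, and SQSTM1, FLCN, ATP6V1D and ATP6V0B rose in all 3. In Ecto 10 members rose (28.5% of all genes) and 12 fell (27.5%), in Endo 4 rose (21.9%) and 18 fell (21.1%), and in VK2 10 rose (27.9%) and 14 fell (30.3%). The median log2 fold change of the members was 0.0038 (Ecto), -0.14 (Endo) and -0.10 (VK2), beside -0.017, -0.012 and -0.017 over all genes. Of the genes at least as abundant as the lower quartile of the members, SPM+GV raised 31.7% (Ecto), 29.9% (Endo) and 29.8% (VK2) and lowered 30.2% (Ecto), 27.7% (Endo) and 46.8% (VK2).

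LAMP1 went from 218, 228 and 228 CPM in NT+GV to 155, 163 and 168 CPM in SPM+GV in Ecto (log2 fold change -0.42, SE 0.044, adjusted p = 8.29e-09), from 314, 318 and 327 to 264, 265 and 267 CPM in Endo (log2 fold change -0.26, SE 0.03, adjusted p = 2.46e-08) and from 348, 360.0 and 362 to 253, 257 and 264 CPM in VK2 (log2 fold change -0.40, SE 0.034, adjusted p = 8.06e-12). CTSD went from 235, 247 and 251 to 175, 179 and 192 CPM in Ecto (log2 fold change -0.38, SE 0.056, adjusted p = 2.85e-06), from 347, 356 and 368 to 302, 303 and 304 CPM in Endo (log2 fold change -0.23, SE 0.032, adjusted p = 7.71e-07) and from 930.2, 955 and 992 to 540.1, 548 and 581 CPM in VK2 (log2 fold change -0.72, SE 0.047, adjusted p = 4.55e-14). Neither gene overlapped between the 2 groups in any line. CTSB fell by 0.66 in Ecto, from 377, 399 and 421 to 237, 246 and 248 CPM, by 0.54 in Endo, from 226, 233 and 236 to 156, 159 and 159.9 CPM, and by 0.52 in VK2, from 216, 218 and 225 to 139, 149 and 153 CPM. CTSA, which had risen with GV in every line, fell by 0.49, 0.33 and 0.37 in Ecto, Endo and VK2. In Endo it went from 221, 224 and 228 to 173, 176 and 183 CPM. In Ecto it was at 207, 211 and 212 CPM with SPM+GV, below the 253, 256 and 262 CPM of untreated cells. PSAP fell by 0.25, 0.22 and 0.44, and GRN by 0.28, 0.25 and 0.39 in the same order. CTSL fell by 0.14, 0.15 and 0.22, NPC2 by 0.14, 0.26 and 0.38, and LAMP2 by 0.34, 0.25 and 0.25. Of these falls, some were lost without 1 library. CTSL in Ecto (without NT+GV 1 or SPM+GV 3, adjusted p = 0.0556 to 0.0877) and NPC2 in Ecto (without NT+GV 1 or 3 or SPM+GV 1 or 2 or 3, adjusted p = 0.0585 to 0.227) no longer passed.

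**Figure D4:**
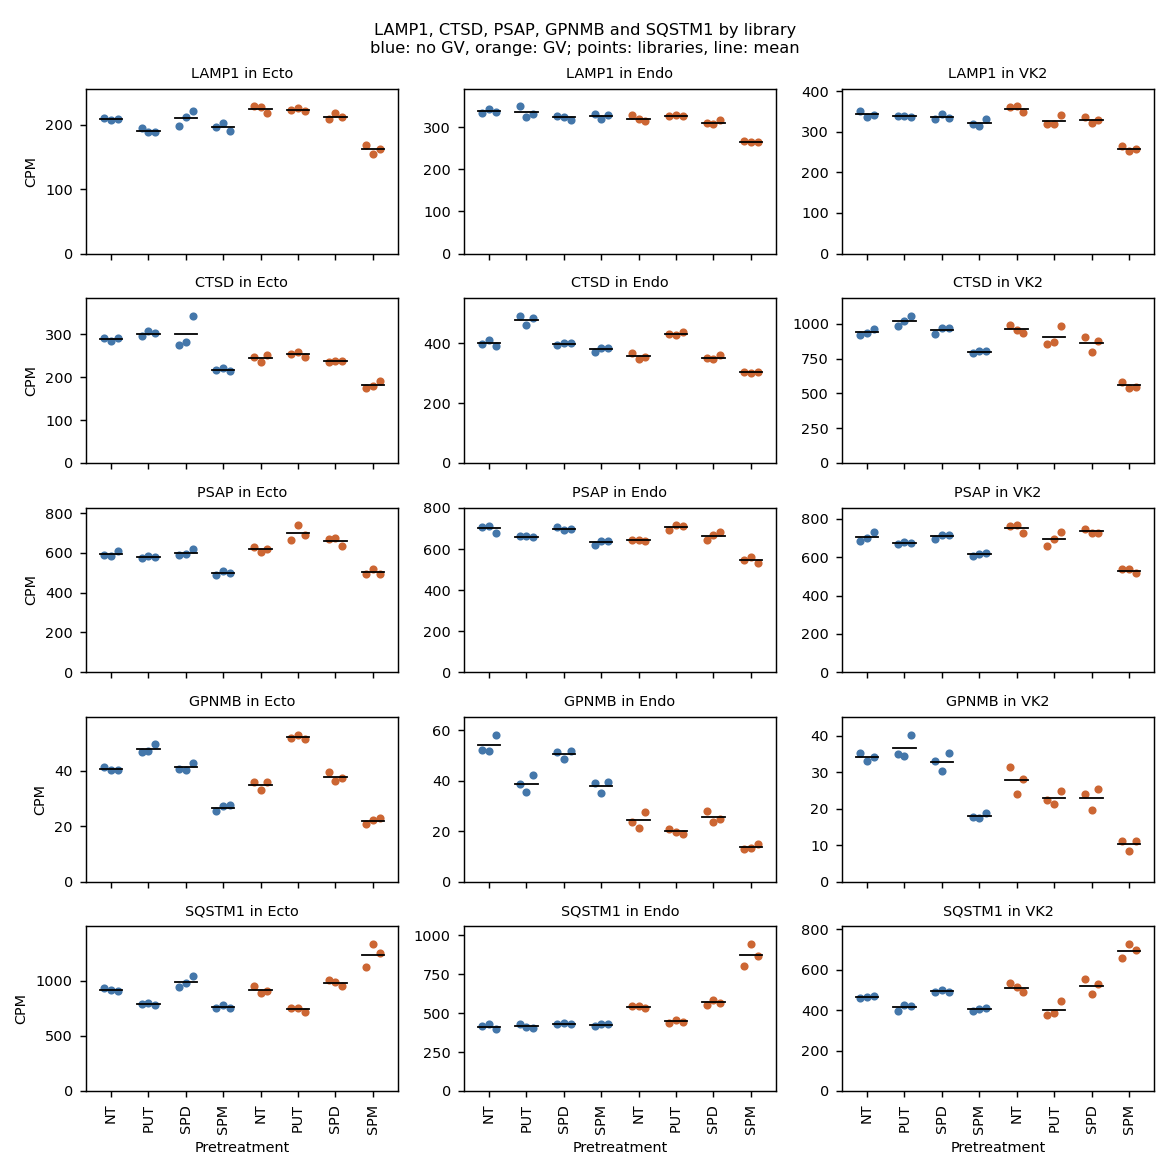
CPM of LAMP1, CTSD, PSAP, GPNMB and SQSTM1 in each library (points) with the group mean (line), by line and pretreatment, without GV in blue and with GV in orange; each vertical axis starts at 0. SPM+GV has the lowest mean of the 8 groups for LAMP1, CTSD and GPNMB in all 3 lines and for PSAP in Endo and VK2 (in Ecto PSAP is lowest in SPM+noGV), and the highest for SQSTM1 in all 3 lines.

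GPNMB fell furthest in VK2 and Endo, and TFEB in Ecto. In VK2 GPNMB went from 24, 28 and 31.3 to 8.48, 11.1 and 11.2 CPM (log2 fold change -1.39, SE 0.12, adjusted p = 1.74e-09), in Endo from 21.4, 23.8 and 27.7 to 12.7, 13.2 and 14.8 CPM (log2 fold change -0.83, SE 0.10, adjusted p = 3.99e-07) and in Ecto from 32.9, 35.8 and 36.1 to 20.9, 22.2 and 22.9 CPM (log2 fold change -0.62, SE 0.053, adjusted p = 2.52e-10). SQSTM1 moved in the opposite direction, from 889.8, 908 and 949.9 to 1125, 1249.7 and 1335 CPM in Ecto (log2 fold change 0.48, SE 0.049, adjusted p = 5.71e-09), from 531, 543 and 545 to 802, 867 and 945 CPM in Endo (log2 fold change 0.70, SE 0.041, adjusted p = 4.49e-15) and from 489, 512 and 533 to 658, 697 and 727 CPM in VK2 (log2 fold change 0.50, SE 0.056, adjusted p = 4.19e-08). Every SPM+GV library lay above every NT+GV library. FLCN went from 37, 37.3 and 41.1 to 56.5, 64.4 and 67.1 CPM in Ecto (log2 fold change 0.75, SE 0.064, adjusted p = 2.34e-10) and rose by 0.40 in Endo, to 56.2, 58.7 and 59.1 CPM, and by 0.14 in VK2. TFEB went from 5.45, 5.61 and 6.58 to 2.44, 2.76 and 3.69 CPM in Ecto (log2 fold change -0.94, SE 0.14, adjusted p = 2.72e-06) and from 10.2, 11.5 and 11.7 to 8.30, 8.76 and 9.86 CPM in Endo (log2 fold change -0.30, SE 0.094, adjusted p = 0.0106), and was at 6.72, 7.79 and 8.40 CPM in VK2 (log2 fold change -0.17, SE 0.11, adjusted p = 0.195). MCOLN1 passed in no line, at 45.1, 51 and 51.3 CPM in Ecto (log2 fold change 0.05, SE 0.057, adjusted p = 0.472), 20.1, 20.1 and 20.8 CPM in Endo (log2 fold change -0.14, SE 0.059, adjusted p = 0.0584) and 10.0, 10.7 and 10.7 CPM in VK2 (log2 fold change 0.052, SE 0.071, adjusted p = 0.554). GLA rose in VK2 from 20.1, 20.7 and 21.2 to 32, 32 and 33 CPM (log2 fold change 0.71, SE 0.059, adjusted p = 4.93e-12) and in Ecto (0.31), and was at 0.042 in Endo. NEU1 rose in Ecto (0.39) and VK2 (0.18) and fell in Endo (-0.30). HEXA and NPC1 fell in Endo (-0.15 and -0.13) and VK2 (-0.33 and -0.26). With 1 library left out, calls were lost here too. HEXA in Endo (without SPM+GV 1, adjusted p = 0.0552) and NPC1 in Endo (without NT+GV 1 or 2 or SPM+GV 1 or 3, adjusted p = 0.07 to 0.147) no longer passed. TFEB in Endo (without SPM+GV 3, adjusted p = 0.0698) and FLCN in VK2 (without NT+GV 2 or 3 or SPM+GV 2 or 3, adjusted p = 0.0576 to 0.159) no longer passed.

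The proton pump subunits moved in both directions. The shares of all genes that rose and fell with SPM+GV were 28.5% and 27.5% (Ecto), 21.9% and 21.1% (Endo) and 27.9% and 30.3% (VK2). ATP6V1D rose from 58.9, 61.9 and 63.6 to 78.5, 82.8 and 86.5 CPM in VK2 (log2 fold change 0.49, SE 0.042, adjusted p = 1.35e-11), by 0.52 in Ecto, to 126, 140.4 and 154 CPM, and by 0.25 in Endo, from 76, 76.9 and 77 to 88.1, 91.5 and 92.7 CPM. ATP6V0B rose by 0.15 (Ecto), 0.15 (Endo) and 0.27 (VK2). In Ecto 6 of the 13 subunits rose, among them ATP6V1C1 of the stalk (0.44), ATP6V1H (0.44), ATP6V1F of the shaft (0.27) and ATP6V1B2 of the catalytic head (0.23), and 1 fell, ATP6V1A (-0.28). In Endo 2 rose and 4 fell, ATP6V1E1 (-0.32), ATP6V1A (-0.19), ATP6V0C (-0.15) and ATP6V0D1 (-0.14). In VK2 6 rose, at 0.11 to 0.49, and ATP6V1E1 (-0.10) and ATP6V1F (-0.14) fell. Leaving out 1 library also ended some calls with SPM+GV. ATP6V0B in Ecto (without NT+GV 1 or 2 or 3 or SPM+GV 2 or 3, adjusted p = 0.0574 to 0.205) and ATP6V1F in Ecto (without NT+GV 2, adjusted p = 0.05) no longer passed. ATP6V0B in Endo (without SPM+GV 2, adjusted p = 0.0709) and ATP6V0A1 in VK2 (without NT+GV 3 or SPM+GV 1, adjusted p = 0.0513 to 0.0686) no longer passed. ATP6V0E1 in VK2 (without NT+GV 1 or 3 or SPM+GV 1 or 3, adjusted p = 0.0859 to 0.195) and ATP6V1C1 in VK2 (without NT+GV 2, adjusted p = 0.0743) no longer passed. ATP6V1E1 in VK2 (without NT+GV 2 or SPM+GV 2 or 3, adjusted p = 0.0505 to 0.0936) and ATP6V1F in VK2 (without NT+GV 2 or SPM+GV 1, adjusted p = 0.128 to 0.167) no longer passed.

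The summed levels were taken per library. The 13 V-ATPase subunits summed in Ecto to 1288 ± 12.2 CPM untreated and 1478 ± 9.45 CPM with GV (mean ± SD, n = 3), then 1741 ± 44.7 CPM with PUT+GV and 1579 ± 92.1 CPM with SPM+GV. In Endo the same sums were 1060.0 ± 3.21, 1310.0 ± 5.86, 1360.0 ± 19.4 and 1243 ± 11.8 CPM, and in VK2 929 ± 7.78, 1015 ± 9.58, 1113 ± 22.5 and 1027 ± 4.97 CPM. In every line all 3 NT+GV sums lay above all 3 NT+noGV sums. The 19 other members summed in VK2 to 4518 ± 82.5 CPM untreated, 4849 ± 98.3 CPM with GV, 4339 ± 243 CPM with PUT+GV and 3843 ± 61.1 CPM with SPM+GV. Their SPM+GV sums lay below all NT+GV sums in each line, in Ecto at 4244 ± 174 against 4591 ± 115 CPM and in Endo at 3663 ± 92.4 against 3829 ± 43.1 CPM, although SQSTM1, which they include, rose. Without bacteria, all SPM+noGV sums of the 19 other members also lay below all untreated sums in each line. In Ecto they were 3789 ± 52.3 against 4567 ± 59.2 CPM and in Endo 3553 ± 30.8 against 3755 ± 61.6 CPM. In VK2 they were 4073 ± 51.6 against 4518 ± 82.5 CPM. The SPM+noGV sums lay below the SPM+GV sums in Ecto and Endo and above them in VK2. Sums weigh abundant genes most and were not tested.

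**Figure D5:**
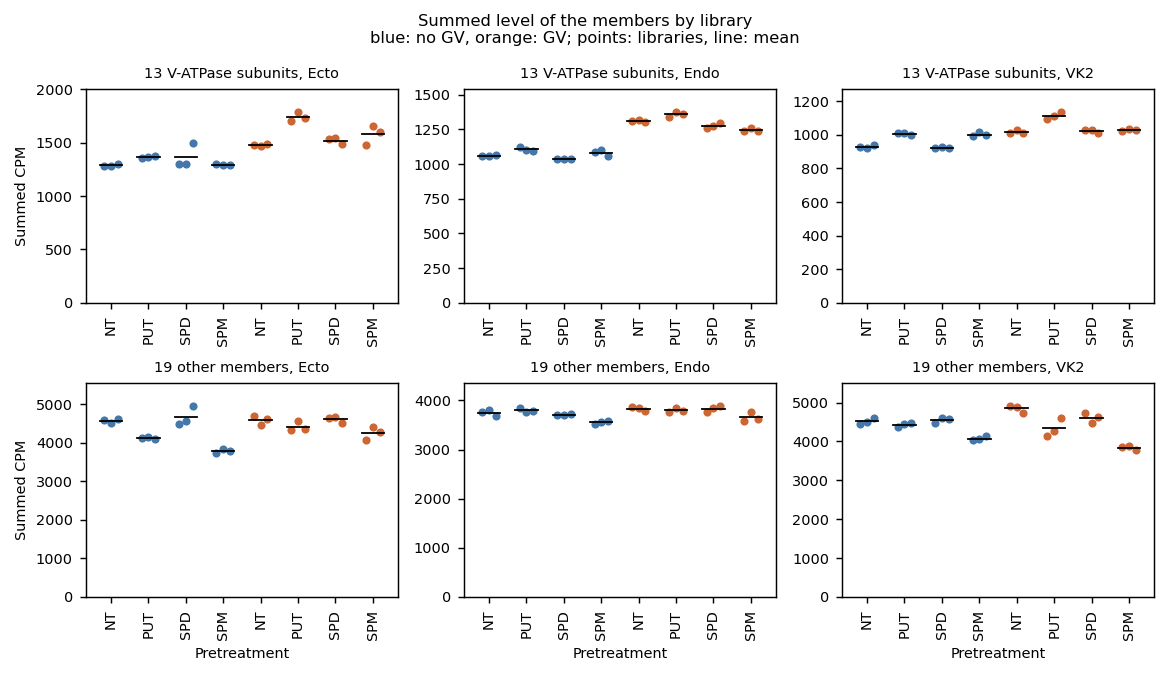
Summed CPM of the 13 V-ATPase subunits (upper row) and of the 19 other lysosome genes (lower row) in each library (points) with the group mean (line), by line and pretreatment, without GV in blue and with GV in orange; each vertical axis starts at 0. For each pretreatment the mean V-ATPase sum is higher with GV than without in all 3 lines, least so for SPM in VK2.

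Spermidine before GV (SPD+GV) changed few members. In Ecto 4 rose (6.53% of all genes) and 1 fell (6.6%), in Endo 5 rose (5.22%) and 3 fell (8.71%), and in VK2 4 rose (4.84%) and 7 fell (7.87%). Of the genes at least as abundant as the lower quartile of the members, SPD+GV raised 6.59% (Ecto), 3.84% (Endo) and 7.39% (VK2) and lowered 14.2% (Ecto), 25.6% (Endo) and 15.9% (VK2). Scaled to library totals alone the pairs were 11 and 1, 9 and 0, and 6 and 2. GLA and ATP6V0B rose in all 3 lines, GLA by 0.25 (Ecto), 0.25 (Endo) and 0.31 (VK2) and ATP6V0B by 0.22 (Ecto), 0.15 (Endo) and 0.14 (VK2) on the log2 scale. For GLA the libraries went from 20.1, 20.7 and 21.2 to 24.6, 25.4 and 26.8 CPM in VK2 (log2 fold change 0.31, SE 0.059, adjusted p = 0.000555), to 75.5, 76.5 and 78.9 CPM in Ecto, and from 47.6, 47.7 and 52 to 57.5, 58.2 and 58.4 CPM in Endo (log2 fold change 0.25, SE 0.053, adjusted p = 0.00176). NEU1 rose in Ecto from 107, 109.5 and 113 to 152, 154 and 156 CPM (log2 fold change 0.50, SE 0.063, adjusted p = 1.71e-05). MCOLN1 rose in Ecto, to 59, 60.2 and 63.8 CPM (log2 fold change 0.32, SE 0.056, adjusted p = 0.000439), and in Endo, to 25.2, 26.1 and 27.1 CPM (log2 fold change 0.22, SE 0.057, adjusted p = 0.0079). MCOLN1 was at 9.62, 10.1 and 10.2 CPM in VK2 (log2 fold change -0.087, SE 0.07, adjusted p = 0.49). CTSB fell in all 3 lines, in Ecto from 377, 399 and 421 to 293, 295 and 312 CPM (log2 fold change -0.40, SE 0.046, adjusted p = 3.9e-06), by 0.12 in Endo, to 212, 213 and 214 CPM, and by 0.16 in VK2, to 193, 194 and 203 CPM. The other rises were TFEB in Endo, at 12.3, 13.8 and 13.9 CPM (log2 fold change 0.27, SE 0.088, adjusted p = 0.0346), CTSL in Endo (0.15) and VK2 (0.15, at 142, 145 and 149 CPM), and ATP6V0A1 in VK2, from 55.1, 55.6 and 56.5 to 60.2, 61.7 and 63.6 CPM (log2 fold change 0.14, SE 0.045, adjusted p = 0.0315). The other falls, all between -0.18 and -0.12, were HEXA and NPC2 in Endo and in VK2, and FLCN, CTSD, NPC1 and LAMP1 in VK2. HEXA went in Endo from 59.7, 59.7 and 62.6 to 54.3, 54.4 and 56.3 CPM, NPC2 in Endo to 165, 168 and 171 CPM, and FLCN in VK2 to 40.4, 40.8 and 43.6 CPM. CTSD was at 236, 237 and 238 CPM (Ecto), 347, 350.3 and 359.7 CPM (Endo) and 799.5, 876 and 902 CPM (VK2), the last with a log2 fold change -0.16, SE 0.046, adjusted p = 0.0169. LAMP1 was at 208, 211 and 218 CPM (Ecto), 307, 309 and 316 CPM (Endo) and 322, 328 and 336 CPM (VK2), the last with a log2 fold change -0.12, SE 0.034, adjusted p = 0.013. GPNMB and SQSTM1 passed in no line. GPNMB was at 36.3, 37.5 and 39.6 CPM in Ecto and 23.6, 24.9 and 27.9 CPM in Endo, SQSTM1 at 953, 987 and 1006 CPM in Ecto and 478, 528 and 553 CPM in VK2, and TFEB at 8.62, 9.49 and 9.52 CPM in VK2. Single libraries carried some of these calls. ATP6V0B in Ecto (without NT+GV 1 or 2 or SPD+GV 1 or 2, adjusted p = 0.0548 to 0.097) and GLA in Ecto (without NT+GV 1 or 2 or SPD+GV 1 or 2, adjusted p = 0.0555 to 0.101) no longer passed. ATP6V0B in Endo (without SPD+GV 3, adjusted p = 0.0732) and CTSL in Endo (without NT+GV 1 or 3 or SPD+GV 2, adjusted p = 0.0748 to 0.101) no longer passed. HEXA in Endo (without NT+GV 2 or SPD+GV 2, adjusted p = 0.0858 to 0.0916) and MCOLN1 in Endo (without NT+GV 2 or 3 or SPD+GV 3, adjusted p = 0.0539 to 0.0811) no longer passed. NPC2 in Endo (without SPD+GV 2, adjusted p = 0.0595) and TFEB in Endo (without NT+GV 1 or 2 or 3 or SPD+GV 2 or 3, adjusted p = 0.0512 to 0.177) no longer passed. ATP6V0A1 in VK2 (without NT+GV 1 or 2 or 3 or SPD+GV 1 or 2, adjusted p = 0.0607 to 0.154) and ATP6V0B in VK2 (without NT+GV 1 or 3 or SPD+GV 1 or 2 or 3, adjusted p = 0.0598 to 0.246) no longer passed. CTSD in VK2 (without NT+GV 1 or SPD+GV 2, adjusted p = 0.1 to 0.161) and CTSL in VK2 (without NT+GV 1 or SPD+GV 2, adjusted p = 0.0528 to 0.054) no longer passed. FLCN in VK2 (without NT+GV 1 or SPD+GV 2 or 3, adjusted p = 0.0777 to 0.142) and HEXA in VK2 (without NT+GV 1 or SPD+GV 2 or 3, adjusted p = 0.0607 to 0.116) no longer passed. LAMP1 in VK2 (without NT+GV 1 or SPD+GV 2, adjusted p = 0.0538 to 0.0816) and NPC1 in VK2 (without NT+GV 1 or SPD+GV 2, adjusted p = 0.0713 to 0.0795) no longer passed.

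Spermine is spermidine with 1 more aminopropyl group, and the 2 were given at the same dose and for the same time, so their groups with GV were compared directly as 1 pair of compounds in each line. SPM+GV was below SPD+GV for 12 members in Ecto (26.2% of all genes), 17 in Endo (21.2%) and 12 in VK2 (27.5%), and above it for 6 (27.6%), 4 (23.4%) and 8 (25.1%). LAMP1, LAMP2, CTSA, CTSB, CTSD, CTSL, PSAP, GRN and GPNMB were lower with spermine in every line, and SQSTM1, FLCN and ATP6V1D were higher in every line. Of the genes at least as abundant as the lower quartile of the members, 21.9% (Ecto), 16.2% (Endo) and 41.9% (VK2) were lower and 35.3% (Ecto), 41.3% (Endo) and 28% (VK2) higher with spermine. Scaled to library totals the members lower and higher were 17 and 6 in Ecto, 21 and 3 in Endo and 11 and 11 in VK2, with a shift of all genes in Ecto of -0.11 on the log2 scale. GPNMB differed by -0.74 (Ecto), -0.91 (Endo) and -1.10 (VK2) on the log2 scale, in VK2 with 19.7, 23.9 and 25.5 CPM for spermidine and 8.48, 11.1 and 11.2 CPM for spermine (log2 fold change -1.10, SE 0.12, adjusted p = 9.13e-08). TFEB differed in Ecto, with 6.10, 6.33 and 7.25 CPM for spermidine and 2.44, 2.76 and 3.69 CPM for spermine (log2 fold change -1.11, SE 0.14, adjusted p = 2.05e-07), and in Endo (log2 fold change -0.57, SE 0.092, adjusted p = 6.08e-06). SQSTM1 was at 555, 567 and 585 CPM with spermidine and 802, 867 and 945 CPM with spermine in Endo (log2 fold change 0.62, SE 0.04, adjusted p = 8.92e-14), and differed by 0.37 in Ecto and 0.48 in VK2. CTSD differed by -0.34 (Ecto), -0.22 (Endo) and -0.56 (VK2) and LAMP1 by -0.35 (Ecto), -0.23 (Endo) and -0.28 (VK2). Where the pair did not pass the test, the interval of the difference (± 2 SE) was -0.0019 to 0.28 for MCOLN1 in VK2, -0.076 to 0.20 for GLA in Ecto and -0.41 to 0.017 for TFEB in VK2. Putrescine, which lacks the aminopropyl group of spermidine, was given at 4 mM, so it was set beside them without a test: with GV in Ecto, MCOLN1 was at 102, 103 and 107 CPM with putrescine, 59, 60.2 and 63.8 CPM with spermidine and 45.1, 51 and 51.3 CPM with spermine. Some differences were lost on leaving out 1 library. ATP6V0E1 in Ecto (without SPD+GV 1 or SPM+GV 1 or 3, adjusted p = 0.0738 to 0.226) and ATP6V0C in Endo (without SPD+GV 3 or SPM+GV 1 or 3, adjusted p = 0.0838 to 0.121) no longer passed. CTSZ in Endo (without SPD+GV 1 or 3 or SPM+GV 1 or 2, adjusted p = 0.0536 to 0.0914) and LAMP2 in Endo (without SPD+GV 1 or SPM+GV 2, adjusted p = 0.13 to 0.144) no longer passed. ATP6V0B in VK2 (without SPD+GV 3 or SPM+GV 2, adjusted p = 0.0651 to 0.113) and ATP6V0C in VK2 (without SPD+GV 2 or SPM+GV 2, adjusted p = 0.0557 to 0.111) no longer passed. NPC1 in VK2 (without SPD+GV 1 or SPM+GV 3, adjusted p = 0.112 to 0.346) no longer passed.

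Without bacteria, the polyamines were compared with untreated cells. Spermidine alone changed 1 member in each line, and it was CTSL each time: 1 of 32 rose in Ecto (0.139% of all genes), in Endo (0.101%) and in VK2 (0.238%), and 0 fell (0.164%, 0.08% and 0.222%). For these counts of 0 by edgeR, 4 members in Ecto, 4 in Endo and 0 in VK2 were lower at an unadjusted p under 0.05, and DESeq2 called 0 in each line. CTSL went from 62, 62.1 and 62.5 to 70.0, 72.1 and 77.7 CPM in Endo (log2 fold change 0.24, SE 0.043, adjusted p = 0.00818), from 98.7, 99.3 and 105 to 111, 112 and 117 CPM in VK2 (log2 fold change 0.18, SE 0.038, adjusted p = 0.018) and from 140.2, 145 and 149 to 164, 167 and 187 CPM in Ecto (log2 fold change 0.24, SE 0.048, adjusted p = 0.0245). Each of these calls was lost on leaving out 1 library. CTSL in Ecto (without NT+noGV 1 or 2 or 3 or SPD+noGV 3, adjusted p = 0.0527 to 0.142) and CTSL in Endo (without NT+noGV 1 or 2 or SPD+noGV 1, adjusted p = 0.0636 to 0.151) no longer passed. CTSL in VK2 (without NT+noGV 2 or 3 or SPD+noGV 1 or 3, adjusted p = 0.065 to 0.199) no longer passed. Spermine alone raised 0 and lowered 13 in Ecto (11.3% and 12.2% of all genes), raised 0 and lowered 6 in Endo (8.02% and 10.1%), and raised 8 and lowered 9 in VK2 (17.4% and 15.6%). For the 0 that rose by edgeR, 2 members in Ecto and 4 in Endo were higher at an unadjusted p under 0.05, DESeq2 called 2 and 1, and library totals gave 1 that rose and 6 that fell in Endo. CTSB, NPC1, NEU1, PSAP and GPNMB fell in all 3 lines, CTSB in Ecto from 398, 413 and 428 to 258, 262 and 262 CPM (log2 fold change -0.65, SE 0.046, adjusted p = 1.54e-10) and GPNMB in VK2 from 33.1, 34 and 35.1 to 17.5, 17.8 and 18.7 CPM (log2 fold change -0.91, SE 0.10, adjusted p = 6.71e-07). TFEB fell in Ecto from 4.31, 5.43 and 5.53 to 3.01, 3.10 and 3.45 CPM (log2 fold change -0.68, SE 0.14, adjusted p = 0.000705) and in Endo (log2 fold change -0.36, SE 0.10, adjusted p = 0.00721). The 8 that rose in VK2 were LAMP2, GLA and 6 pump subunits, from 0.14 for ATP6V0E1 to 0.38 for GLA. LAMP1 passed in no line. With spermine alone, leaving out 1 library ended some calls. NEU1 in Ecto (without NT+noGV 1, adjusted p = 0.0574) and NPC2 in Ecto (without NT+noGV 1 or 3 or SPM+noGV 1 or 3, adjusted p = 0.0536 to 0.0693) no longer passed. NPC1 in Endo (without NT+noGV 1 or 2 or 3 or SPM+noGV 1 or 2 or 3, adjusted p = 0.0646 to 0.148) and TFEB in Endo (without SPM+noGV 1, adjusted p = 0.0747) no longer passed. ATP6V0E1 in VK2 (without NT+noGV 1 or SPM+noGV 3, adjusted p = 0.0619 to 0.0858) and GRN in VK2 (without NT+noGV 3 or SPM+noGV 1 or 2, adjusted p = 0.0551 to 0.101) no longer passed. NPC2 in VK2 (without NT+noGV 3 or SPM+noGV 2 or 3, adjusted p = 0.0565 to 0.11) no longer passed. Putrescine alone raised 11 and lowered 9 in Ecto (23.9% and 22.9%), raised 9 and lowered 5 in Endo (15.6% and 16.3%), and raised 12 and lowered 5 in VK2 (22% and 23%), and by library totals 15 and 7, 9 and 5, and 17 and 3. GLA, MCOLN1, CTSL, ATP6V0A1, ATP6V0B and ATP6V1C1 rose in all 3 lines, and HEXA and NPC2 fell in all 3. MCOLN1 went in Ecto from 31, 33.4 and 35.1 to 46, 48 and 49.4 CPM (log2 fold change 0.55, SE 0.058, adjusted p = 1.76e-08), and GLA in VK2 from 14.2, 14.6 and 16.2 to 21.8, 22.2 and 22.9 CPM (log2 fold change 0.58, SE 0.061, adjusted p = 2.34e-09). NPC1 fell in Ecto from 314, 315 and 316 to 189.5, 198 and 203 CPM (log2 fold change -0.66, SE 0.064, adjusted p = 5.06e-09). With putrescine alone, leaving out 1 library ended some calls. LAMP1 in Ecto (without NT+noGV 1 or 2 or 3 or PUT+noGV 2 or 3, adjusted p = 0.0833 to 0.149) and PSAP in Endo (without NT+noGV 1 or 2 or PUT+noGV 1 or 2 or 3, adjusted p = 0.0597 to 0.137) no longer passed. CTSD in VK2 (without NT+noGV 1 or PUT+noGV 3, adjusted p = 0.0666 to 0.108) and SQSTM1 in VK2 (without NT+noGV 1 or 2 or 3 or PUT+noGV 1, adjusted p = 0.0634 to 0.142) no longer passed. TFEB in VK2 (without NT+noGV 1 or 3 or PUT+noGV 1 or 3, adjusted p = 0.0784 to 0.147) no longer passed.

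The levels with a polyamine alone are set beside the untreated levels for TFEB and 5 further genes. TFEB in Ecto was at 7.20, 7.24 and 7.35 CPM with putrescine, 5.09, 6.09 and 7.06 CPM with spermidine and 3.01, 3.10 and 3.45 CPM with spermine. TFEB in Endo was at 8.53, 10.0 and 11.1 CPM with putrescine, 9.12, 9.31 and 9.47 CPM with spermidine and 7.17, 7.61 and 8.93 CPM with spermine. TFEB in VK2 was at 8.05, 8.38 and 8.71 CPM with putrescine, 6.45, 6.96 and 7.55 CPM with spermidine and 5.52, 6.38 and 6.75 CPM with spermine. The calls for TFEB were a rise with putrescine in Ecto (log2 0.52), a rise with putrescine in VK2 (log2 0.26), a fall with spermine in Ecto (log2 -0.68) and a fall with spermine in Endo (log2 -0.36). SQSTM1 in Ecto was at 777, 785 and 796 CPM with putrescine, 947, 983 and 1048 CPM with spermidine and 751, 753 and 776 CPM with spermine. SQSTM1 in Endo was at 404, 410.0 and 429.5 CPM with putrescine, 429, 432 and 439 CPM with spermidine and 417, 428 and 429 CPM with spermine. SQSTM1 in VK2 was at 395, 418 and 427 CPM with putrescine, 489, 491 and 498 CPM with spermidine and 397, 404 and 412 CPM with spermine. The calls for SQSTM1 were a fall with putrescine in Ecto (log2 -0.20), a fall with putrescine in VK2 (log2 -0.16), a fall with spermine in Ecto (log2 -0.26) and a fall with spermine in VK2 (log2 -0.19). GPNMB was lowest with spermine in Ecto and VK2, and in Endo its putrescine and spermine libraries overlapped. GPNMB in Ecto was at 46.9, 47.3 and 49.6 CPM with putrescine, 40.2, 40.5 and 42.9 CPM with spermidine and 25.4, 27.2 and 27.5 CPM with spermine. GPNMB in Endo was at 35.4, 38.8 and 42.3 CPM with putrescine, 48.6, 51.2 and 51.6 CPM with spermidine and 35, 38.9 and 39.7 CPM with spermine. GPNMB in VK2 was at 34.4, 34.9 and 40.3 CPM with putrescine, 30.3, 33 and 35.3 CPM with spermidine and 17.5, 17.8 and 18.7 CPM with spermine. The calls for GPNMB were a rise with putrescine in Ecto (log2 0.26), a fall with putrescine in Endo (log2 -0.48), a fall with spermine in Ecto (log2 -0.59), a fall with spermine in Endo (log2 -0.52) and a fall with spermine in VK2 (log2 -0.91).

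MCOLN1 in Ecto was at 46, 48 and 49.4 CPM with putrescine, 32.6, 33.2 and 37.1 CPM with spermidine and 25.9, 26.5 and 27.5 CPM with spermine. MCOLN1 in Endo was at 23, 23.5 and 25.3 CPM with putrescine, 19.2, 19.5 and 20.5 CPM with spermidine and 20.5, 21 and 21.4 CPM with spermine. MCOLN1 in VK2 was at 9.68, 10.3 and 10.4 CPM with putrescine, 8.26, 8.42 and 9.35 CPM with spermidine and 8.50, 9.05 and 9.28 CPM with spermine. The calls for MCOLN1 were a rise with putrescine in Ecto (log2 0.55), a rise with putrescine in Endo (log2 0.22), a rise with putrescine in VK2 (log2 0.24) and a fall with spermine in Ecto (log2 -0.31). LAMP1 in Ecto was at 188, 188 and 195 CPM with putrescine, 198, 212 and 221 CPM with spermidine and 191, 196 and 202 CPM with spermine. LAMP1 in Endo was at 324, 331 and 349 CPM with putrescine, 317, 325 and 327 CPM with spermidine and 319, 328 and 332 CPM with spermine. LAMP1 in VK2 was at 337, 339 and 339 CPM with putrescine, 332, 334 and 344 CPM with spermidine and 313, 319 and 332 CPM with spermine. The call for LAMP1 was a fall with putrescine in Ecto (log2 -0.11). CTSD in Ecto was at 296, 302 and 307 CPM with putrescine, 275, 283 and 343 CPM with spermidine and 215, 216 and 222 CPM with spermine. CTSD in Endo was at 459.9, 485 and 492 CPM with putrescine, 394, 400.1 and 403 CPM with spermidine and 369.5, 384 and 386 CPM with spermine. CTSD in VK2 was at 986, 1019 and 1057 CPM with putrescine, 926, 970.5 and 971 CPM with spermidine and 787, 802 and 803 CPM with spermine. The calls for CTSD were a rise with putrescine in Endo (log2 0.26), a rise with putrescine in VK2 (log2 0.13), a fall with spermine in Ecto (log2 -0.40) and a fall with spermine in VK2 (log2 -0.22).

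Whether a polyamine acted differently with and without GV was tested as an interaction. For spermine 14 members in Ecto (36.3% of all genes), 19 in Endo (24.3%) and 20 in VK2 (38.9%) passed. The spermine interaction was positive for 10, 4 and 5 members (19%, 14.1% and 17% of all genes). It was negative for 4, 15 and 15 (17.3%, 10.2% and 21.9%), in the same order of lines. Of the genes at least as abundant as the lower quartile of the members, it was positive in 19.5%, 20.2% and 15.7%. In these abundant genes it was negative in 25.8% (Ecto), 19.6% (Endo) and 48% (VK2). SQSTM1 had an interaction of 0.74 (Ecto), 0.67 (Endo) and 0.69 (VK2) on the log2 scale (adjusted p = 3.82e-09, 1.57e-10 and 2.75e-07). With spermine it was at 417, 428 and 429 CPM without and 802, 867 and 945 CPM with GV in Endo, against 395, 420.1 and 428 and 531, 543 and 545 CPM without spermine. LAMP1 had one of -0.35 (Ecto), -0.21 (Endo) and -0.33 (VK2), CTSA of -0.28 (Ecto), -0.29 (Endo) and -0.30 (VK2), and LAMP2 of -0.29 (Ecto), -0.19 (Endo) and -0.39 (VK2), all past the test. FLCN passed in Ecto (0.99) and Endo (0.39). GPNMB passed in VK2 (log2 fold change -0.48, SE 0.16, adjusted p = 0.0201), with -0.031 in Ecto and -0.31 in Endo. For putrescine 13 passed in Ecto (26.4%), 14 in Endo (34.8%) and 15 in VK2 (27.6%), among them MCOLN1 in every line, at 0.59 (Ecto), 0.60 (Endo) and 0.32 (VK2), and CTSB in every line, at -0.22 (Ecto), -0.28 (Endo) and -0.33 (VK2). Positive putrescine interactions numbered 12, 6 and 5 (14.4%, 14.9% and 9.82% of all genes) and negative ones 1, 8 and 10 (12%, 19.9% and 17.8%). Scaled to library totals, 11, 17 and 9 were positive and 1, 1 and 2 negative, so their direction in Endo and VK2 depended on the scaling. Among the genes of that abundance, 18%, 7.18% and 6.54% were positive and 19.8%, 54.6% and 45.9% negative. For spermidine 4 passed in Ecto (3.13%), NEU1, MCOLN1, CTSB and ATP6V1B2, 1 in Endo (3.45%), GLA, and 0 in VK2 (0.352%), where 8 differed at an unadjusted p under 0.05 and DESeq2 called 0. Of these 5 spermidine interactions, 4 were lost on leaving out 1 library. MCOLN1 in Ecto (without any NT+GV library or NT+noGV 1 or 3 or any SPD+GV library or SPD+noGV 1 or 2, adjusted p = 0.0515 to 0.127) no longer passed. ATP6V1B2 in Ecto (without any NT+GV library or any NT+noGV library or any SPD+GV library or SPD+noGV 1, adjusted p = 0.0511 to 0.14) no longer passed. CTSB in Ecto (without NT+GV 1 or NT+noGV 2 or SPD+GV 2, adjusted p = 0.0584 to 0.0679) no longer passed. GLA in Endo (without NT+GV 1 or 3 or any NT+noGV library or SPD+GV 2 or 3 or SPD+noGV 1 or 3, adjusted p = 0.0539 to 0.099) no longer passed. Leaving out 1 library gave 1 to 5 spermidine interactions in Ecto and 0 to 4 in Endo. Of the other interactions named, LAMP2 in Endo (without NT+GV 3 or NT+noGV 1 or 2 or SPM+GV 2 or SPM+noGV 1 or 3, adjusted p = 0.0513 to 0.137) for spermine was lost. GPNMB in VK2 (without NT+GV 1 or SPM+GV 2, adjusted p = 0.0578 to 0.0823) for spermine and MCOLN1 in VK2 (without NT+GV 3, adjusted p = 0.0522) for putrescine were lost as well.

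The lines were compared in one model of all 72 libraries, which tests the difference between 2 lines in a response. The GV response differed between Ecto and Endo for 17 members (28% of all genes), between Ecto and VK2 for 17 (27.5%) and between Endo and VK2 for 18 (25.8%). CTSL rose more in Endo than in Ecto (difference -0.67, SE 0.06, adjusted p = 4.26e-14), and GPNMB fell more in Endo than in Ecto (difference 0.95, SE 0.11, adjusted p = 5.3e-10). The PUT+GV response differed for 14 (24.8%), 19 (35%) and 16 (22.4%) members, and that of SPM+GV for 16 (25.8%), 12 (31.6%) and 14 (24.6%), in the same order of pairs. MCOLN1 rose more with PUT+GV in Ecto than in VK2 (difference 0.52, SE 0.082, adjusted p = 4.3e-07), and GLA more in VK2 than in Ecto (difference -0.55, SE 0.091, adjusted p = 1.16e-06). For SPM+GV, CTSD fell more in VK2 than in Endo (difference Endo minus VK2 0.55, SE 0.067, adjusted p = 1.23e-09), and TFEB more in Ecto than in VK2 (difference -0.77, SE 0.18, adjusted p = 0.000391). The SPD+GV response differed for 3 (0.722%), 4 (5.16%) and 0 members (1.13%), with 4 at an unadjusted p under 0.05 and 0 by DESeq2 for the last. Each difference named here passed with every one of the 12 libraries behind it left out in turn. For SPM+GV between Ecto and Endo, however, SQSTM1 lost its call in 9 of 12 omissions, LAMP1 in 10, and CTSA, CTSB and CTSD in 11 each. In 33 of 45 omissions TMM took another library as its reference (Ecto SPD+noGV 3, which stood apart, in place of Endo SPD+GV 3), and the median of the members moved by up to 0.131 on the log2 scale in that comparison. With RLE factors CTSA, CTSB and CTSD did not pass there either (adjusted p = 0.0947, 0.208 and 0.198), while LAMP1 and SQSTM1 did. Other pairs of lines and comparisons also held calls that single omissions ended. For GV between Ecto and Endo, ATP6V1C1 and NEU1 lost theirs in 11 of 12 omissions and NPC2 in 10. For PUT+GV between Ecto and VK2, LAMP1 and ATP6V1B2 lost theirs in 10 of 12.

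The rest of the pathway was read from 6 lists of 110 genes that hold no member. The counts of these lists stand beside the shares of all genes that rose and fell, 20.9% and 23.7% (Ecto), 25.7% and 28.7% (Endo) and 13.9% and 12.5% (VK2) with GV. With PUT+GV these shares were 31.5% and 24.9%, 27.9% and 28.2%, and 29% and 31.4%, and with SPM+GV 28.5% and 27.5%, 21.9% and 21.1%, and 27.9% and 30.3%, in the same order of lines. Among 39 other hydrolases and cofactors, GV raised 14 and lowered 10 in Ecto, raised 15 and lowered 11 in Endo, and raised 20 and lowered 3 in VK2. CTSS, cathepsin S of antigen processing, rose in all 3 lines, with log2 fold changes of 0.97 (Ecto), 4.05 (Endo) and 2.82 (VK2) (adjusted p = 1.75e-09, 5.82e-15 and 6.16e-13). CTSC, which activates serine proteases, also rose in all 3, by 0.44 (Ecto), 0.88 (Endo) and 0.41 (VK2) (adjusted p = 3.33e-08, 1.01e-20 and 5.77e-11). NAGLU, which degrades heparan sulfate, fell in all 3, with -1.04 (Ecto), -0.72 (Endo) and -0.21 (VK2) (adjusted p = 4.54e-11, 2.4e-10 and 0.00497), as did LIPA, the acid lipase, with -0.59 (Ecto), -0.90 (Endo) and -0.26 (VK2) (adjusted p = 6.36e-10, 4.93e-16 and 3.39e-05). With SPM+GV 24 of the 39 fell in Ecto, 22 in Endo and 28 in VK2, and 5, 2 and 3 rose. GM2A, the activator that HEXA needs to degrade gangliosides, fell in all 3, with -0.62 (Ecto), -0.61 (Endo) and -0.56 (VK2) (adjusted p = 3.9e-09, 6.08e-12 and 2.77e-13). With PUT+GV 14 rose and 11 fell in Ecto, 8 rose and 25 fell in Endo, and 6 rose and 23 fell in VK2. CTSV, cathepsin V, rose with PUT+GV in all 3 lines, by 0.76 (Ecto), 0.29 (Endo) and 0.17 (VK2) (adjusted p = 3.35e-11, 1.2e-08 and 0.000361). SMPD1, acid sphingomyelinase, rose in Ecto and Endo, with 0.77 (Ecto), 0.37 (Endo) and 0.11 (VK2) (adjusted p = 8.1e-11, 0.000163 and 0.174), and DNASE2 rose in Ecto and Endo and fell in VK2, with 0.70 (Ecto), 0.35 (Endo) and -0.16 (VK2) (adjusted p = 5.91e-11, 1.16e-06 and 0.0221). The median log2 fold change of these 39 genes with SPM+GV was -0.28 (Ecto), -0.22 (Endo) and -0.40 (VK2).

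Of 16 other lysosomal membrane proteins, GV raised 2 in Ecto, 4 in Endo and 7 in VK2 and lowered 3, 3 and none. PUT+GV raised 1 in each line and lowered 11, 12 and 10, and SPM+GV lowered 12, 8 and 11 and raised none, 1 and none. TPCN1, a cation channel of endolysosomes, fell with PUT+GV in all 3 lines, with log2 fold changes of -1.29 (Ecto), -0.55 (Endo) and -0.73 (VK2) (adjusted p = 4.61e-15, 4.08e-10 and 2.37e-13). Among the other V-ATPase genes, of which 7 were tested in Ecto, 8 in Endo and 9 in VK2, GV raised 1 in each line and lowered 2, 2 and 1. These include further V0 genes: with GV, ATP6V0E2 fell in Ecto and ATP6V0A4 rose there (-0.55 and 0.37, adjusted p = 3.3e-06 and 0.000452). ATP6V0E2 was at 0.10 in Endo and 0.063 in VK2, ATP6V0A4 at 0.87 in VK2, and neither passed in these lines. ATP6V0A2 and ATP6V0D2 passed in no line in which they were tested. PUT+GV raised 2, 2 and 1 of these V-ATPase genes and lowered 2, 3 and 3. SPM+GV raised 1 in Ecto, ATP6V0A4 (0.86, adjusted p = 3.79e-10), and none in Endo and VK2, and lowered 4, 7 and 6. ATP6AP2, an accessory protein of the pump, fell with SPM+GV in all 3 lines, with -0.40 (Ecto), -0.25 (Endo) and -0.42 (VK2). It also fell in all 3 lines with PUT+GV, with -0.36 (Ecto), -0.57 (Endo) and -0.55 (VK2). With SPD+GV its falls were -0.28 (Ecto), -0.28 (Endo) and -0.19 (VK2).

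Of 16 autophagy genes, GV raised 3 in Ecto, 1 in Endo and 4 in VK2 and lowered 9, 9 and 1. PUT+GV raised 11, 9 and 4 and lowered 4, 4 and 9, and SPM+GV raised 7, 4 and 4 and lowered 4, 1 and 6. MAP1LC3B, the LC3B precursor of autophagosome membranes, rose with GV in Ecto and Endo, with log2 fold changes of 0.60 (Ecto), 0.28 (Endo) and 0.033 (VK2) (adjusted p = 3.72e-10, 2.27e-07 and 0.554). Of 19 genes of TFEB and mTORC1 control, GV raised 1, 5 and 3 and lowered 9, 9 and 1. PUT+GV raised 7, 2 and 3 and lowered 5, 12 and 14, and SPM+GV raised 8, 2 and 4 and lowered 5, 6 and 8. TFE3, a close relative of TFEB, rose with GV in Endo and VK2, with -0.069 (Ecto), 0.35 (Endo) and 0.25 (VK2) (adjusted p = 0.195, 3.01e-09 and 8.83e-06), and with SPM+GV in all 3 lines, with 0.45 (Ecto), 0.26 (Endo) and 0.24 (VK2) (adjusted p = 1.6e-09, 1.06e-06 and 3.73e-06). Of 9 genes that sort enzymes to lysosomes, GV raised 3, 4 and 2 and lowered 3, 4 and 2. PUT+GV raised 5, 3 and 2 and lowered 2, 5 and 6, and SPM+GV raised 1 in each line and lowered 6, 5 and 7. IGF2R, a mannose 6-phosphate receptor, fell with SPM+GV in Endo and VK2, with -0.13 (Ecto), -0.17 (Endo) and -0.45 (VK2) (adjusted p = 0.298, 0.000311 and 1.83e-13). Its fall was not particular to spermine: it fell with PUT+GV in all 3 lines, by 0.58 (Ecto), 0.60 (Endo) and 0.60 (VK2). With SPD+GV it fell in Endo (-0.18) and VK2 (-0.13). SPD+GV changed at most 11 genes of any of these lists in a line, reached by the 39 other hydrolases and cofactors in VK2. Of these 39, it raised 4, 0 and 1 and lowered 4, 9 and 10 in Ecto, Endo and VK2. Beside them, 6.53%, 5.22% and 4.84% of all genes rose and 6.6%, 8.71% and 7.87% fell.

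Among the members described most, the annotation places GLA (ENSG00000102393.15) at chrX:101393273-101408012, MCOLN1 (ENSG00000090674.16) at chr19:7522624-7534009, GPNMB (ENSG00000136235.17) at chr7:23235967-23275108 and SQSTM1 (ENSG00000161011.20) at chr5:179806398-179838078 in GRCh38. How reads shared with pseudogene copies or with overlapping transcripts were divided among these genes was not tested.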

How the data were processed

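RNA from 72 libraries (24 groups of 3, grouped by the sample labels) was sequenced by the study after CORALL total RNA library preparation. The authors deposited 1 table of estimated counts per gene, made with Salmon and tximeta on GENCODE 44. The Salmon version and the use of molecular identifiers are not given in the sources used here, so the precision that depth gives covers counting error only. Salmon divides reads between similar transcripts, which can move counts between near-identical copies. The table held 62266 genes and 0 per-sample columns that were left unused. A second deposited table holds sample descriptions only and was not used.

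Estimated counts were rounded to whole numbers. For each line, 24 libraries in 8 groups were fitted with edgeR 4.0.16 (R 4.3.3, limma 3.58.1) after filterByExpr and TMM scaling, with a robust quasi-likelihood fit and no covariates. Each of the 11 comparisons was tested two-sided, with Benjamini-Hochberg adjustment over all genes tested in it. A member rose or fell at an adjusted p under 0.05. Lines were compared in 1 fit of 72 libraries. Levels were computed in R with the TMM factors of that fit of 72 libraries. Promoter motifs and plots were made with Python 3.11.15, pandas 2.3.3 and matplotlib 3.10.9. The scripts were tested on simulated data. The members and lists were chosen with earlier results of these data known. Full values were given for the members with the 3 highest and 3 lowest called log2 fold changes in GV, PUT+GV, SPD+GV and SPM+GV in any line, for TFEB, SQSTM1, GPNMB, MCOLN1, LAMP1 and CTSD, and for the 3 genes of lowest adjusted p at most in each other list and comparison. Further members were named after their values were seen. Alternatives were DESeq2 1.42.0, RLE factors, library totals, no filter, only the groups compared, a replicate block, a fold of at least 2, and leaving out each library.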

Additional observations from a re-analysis of the deposited data

Results flagged for a closer look

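The responses of the members differed between lines by the test of the difference itself, in the fit of all 72 libraries. With GV, 17 members differed between Ecto and Endo (28% of all genes did), 17 between Ecto and VK2 (27.5%) and 18 between Endo and VK2 (25.8%). With PUT+GV the counts were 14 (24.8%), 19 (35%) and 16 (22.4%) and with SPM+GV 16 (25.8%), 12 (31.6%) and 14 (24.6%), in the same order of pairs. With SPD+GV 3 differed between Ecto and Endo (0.722%) and 4 between Ecto and VK2 (5.16%). Some of these differences were lost when a single library was left out, as described with the comparison of the lines.

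Some members passed the test in opposite directions in 2 lines. With GV, LAMP2 rose in Ecto and fell in Endo (log2 difference Ecto minus Endo 0.3752), and PSAP fell in Endo and rose in VK2 (Endo minus VK2 -0.2191). With PUT+GV, HEXA rose in Ecto and fell in the others (Ecto minus Endo 0.4435, Ecto minus VK2 0.6221), as did GPNMB (0.8626 and 0.8658). Also with PUT+GV, ATP6V1H differed by 0.4716 (Ecto minus Endo), FLCN by 0.7767 and ATP6V1G1 by 0.4321 (both Ecto minus VK2), and PSAP by 0.2873 (Ecto minus VK2) and 0.2517 (Endo minus VK2). Scaled to library totals, the falls of PSAP and ATP6V1G1 in VK2 turned to log2 fold changes of 0.081 and 0.050. With SPM+GV, NEU1 differed by 0.6418 (Ecto minus Endo) and -0.4228 (Endo minus VK2), ATP6V1F by 0.427 (Ecto minus VK2) and ATP6V0D1 by -0.2834 (Endo minus VK2).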

How the results depend on the processing

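Of 372 member calls, 361 kept their direction and side of the threshold with RLE factors, 360 with DESeq2, 349 with no filter on low counts, 349 with only the groups compared and 332 with library totals, where 36 were lost and 4 turned direction: ATP6V1G1 (0.04967), LAMP1 (0.06349) and PSAP (0.08109) with PUT+GV in VK2 and CTSA (0.04246) with PUT+GV in Endo. Leaving out 1 library kept 2030 of 2232 and reversed 0. These calls include no interaction. How library totals shifted the putrescine interactions is given with the interactions. Counts of members that moved by over 1.5 times were these, with both directions of an interaction counted together. With DESeq2, falls with SPD+GV were 2 in Ecto and 5 in Endo, falls with GV in VK2 1, rises with SPM+noGV 2 in Ecto and 1 in Endo, and the SPD interaction 3 in Endo. With RLE factors, falls were 1 for GV in VK2 and 2 for SPD+GV in Ecto, rises with SPM+noGV 1 in Ecto and 1 in Endo, and the SPD interaction 2 in Ecto. With library totals, untreated members lower in Ecto than VK2 were 5, falls 5 for GV in Endo, 2 for GV in VK2, 4 and 6 for PUT+GV in Endo and VK2, 3 for PUT+noGV in VK2, and 0 and 2 for SPD+GV in Endo and VK2. Rises were 18 for GV in Ecto, 11 and 9 for SPD+GV in Ecto and Endo and 1 for SPM+noGV in Endo, the SPD interaction in Endo 5, and response differences 1 for SPD+GV (Endo minus VK2) and 19 for SPM+GV (Ecto minus VK2). With no filter, falls were 1 for GV in VK2, 2 and 0 for SPD+GV in Ecto and Endo and 1 for SPD+noGV in Ecto, rises 1 for SPM+noGV in Endo, the SPD interaction in Endo 2, and response differences (Endo minus VK2) 1 for SPD+GV and 8 for SPM+GV. With only the groups compared, falls were 1 for GV in VK2, 8 for PUT+GV in Ecto and 3, 0 and 3 for SPD+GV in Ecto, Endo and VK2, rises 17 for GV and 10 for SPD+GV in Ecto, 0 for SPD+noGV in Ecto and 3 for SPM+noGV in Ecto and in Endo, and the SPD interaction in Ecto 1. With a fold of at least 2, 45 counts fell to 0 and 5 to 1 (GV in Endo, PUT+GV in Ecto, SPM+GV in VK2, and SPM+GV against SPD+GV in Ecto and VK2). The causes were not tested.

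Deviations of same-numbered libraries from their group means were weakly and positively correlated (mean correlation 0.015 in Ecto, 0.034 in Endo and 0.0225 in VK2). Mean values this small cannot show whether a number marks a shared culture or run, and the labels do not say. With the replicate block 371 of 372 calls were kept, and the moved counts were 8 falls with SPD+GV in Endo, 1 fall with GV in VK2, 2 rises with SPM+noGV in Endo, 1 SPD+GV response difference (Endo minus VK2) and 4 SPD interactions in Endo. Leaving out 1 library, falls ranged from 0 to 1 for GV in VK2, 1 to 6 for SPD+GV in Endo and 2 to 8 in VK2, rises from 2 to 4, 2 to 6 and 1 to 4 for SPD+GV in Ecto, Endo and VK2, 0 to 1 for SPD+noGV in each line and 0 to 2 for SPM+noGV in Endo, and the SPD interaction from 1 to 5 in Ecto and 0 to 4 in Endo, and SPD+GV response differences (Endo minus VK2) from 0 to 1. These omissions also changed the genes tested and often the TMM reference, which moved the median of the members within a line by -0.052 to 0.0546 on the log2 scale.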
